A study of Mus musculus with 3 samples.

Results

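Naive-type CD8 T cells are the blood T cells that carried transcripts of the CD8 coreceptor, no Cd4 transcript and almost none of 3 genes of antigen-experienced T cells. A barcode was a member when it held 200 or more genes and 4 or more unique molecular identifiers (UMIs) over Cd3e, Cd3d, Cd3g, Trac and Trbc2. It also had to hold at most 2 UMIs over the B cell genes Cd79a, Cd79b and Ms4a1, at most 1 over the myeloid genes Csf1r and Csf3r, at least 2 over Cd8a and Cd8b1, none of Cd4, and at most 1 over Ccl5, Cxcr3 and Il2rb. The rule found 1486 members among 22688 barcodes. It read measured counts, so the levels of its 16 genes are descriptions without a test, as are those of the markers Dapl1, Itgae and Rgcc, which came with the rule, between members and other classes.

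The cells were leukocytes from peripheral blood of untreated mice, collected after red cell lysis, sorted on 2 nuclear stains, fixed and counted with a probe-based fixed-RNA kit. Replicate 1 was labelled as 8 weeks of age, replicate 2 as 9 weeks and replicate 3 as 10 weeks. All 3 libraries share the treatment and the genotype entry, which reads Male. The labels give no strain or allele and do not state that the libraries came from separate animals. With the library as a block, p-values therefore measure how differences within a library vary over these 3 libraries, and not a spread between animals. Since each age has 1 library, age and library cannot be told apart.

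Naive CD8 T cells leave the thymus with an assembled T cell receptor and recirculate between blood and lymphoid organs, guided by adhesion molecules, CCR7 and a sphingolipid receptor, until they meet antigen on MHC class I. Quiescence in them is tied to factors such as TCF-1 (Tcf7), LEF-1 and KLF2, and their survival to interleukin 7 and contact with self-MHC. In mice they also carry integrin alpha E (Itgae, CD103), which with beta 7 binds E-cadherin and whose transcription responds to TGF-beta.

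Cd8a and Cd8b1 belong to the rule, which fixes their excess in members, so their levels describe the gate. Cd8b1, the CD8 beta chain (chromosome 6, 71322788 to 71337494, GRCm38), had 2687, 2563 and 2503 UMI counts per 1000000 (CPM) in replicates 1, 2 and 3 of the members, against 355, 228 and 162 in all other barcodes. Cd8a, the alpha chain, had 1259, 1179 and 1253 in members, against 162, 100.5 and 79.6 in all others. Outside the rule, Cd44, an adhesion receptor that rises after activation, had 16.8, 27.0 and 31.1 in members, against 472, 384 and 268 in all others. All others mix lineages, so this contrast does not isolate activation. Among cells that met the other limits of the rule, those with 3 or more UMIs of Ccl5, Cxcr3 and Il2rb had 194.

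The members' share was similar between libraries among T cells and higher in replicate 1 among all barcodes. There were 929, 247 and 310 members, which is 8.44%, 4.89% and 4.67% of barcodes (6.0% ± 2.12, SD, n = 3). As a share of T cells by the T cell part of the rule they were 23.2%, 23.3% and 24.4% (23.6% ± 0.667, SD, n = 3). The exact 95% intervals of these T cell shares were 21.9% to 24.5%, 20.8% to 25.9% and 22.0% to 26.8% and overlapped, while the interval of replicate 1 among all barcodes, 7.93% to 8.98%, lay above those of the other 2 libraries. Intervals here cover counting error only. Among cells passing the CD8 part of the rule, members made up 48.6%, 47.5% and 55.2%, and there were 0.682, 0.737 and 0.690 members for each naive-type CD4 T cell.

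**Figure D1:**
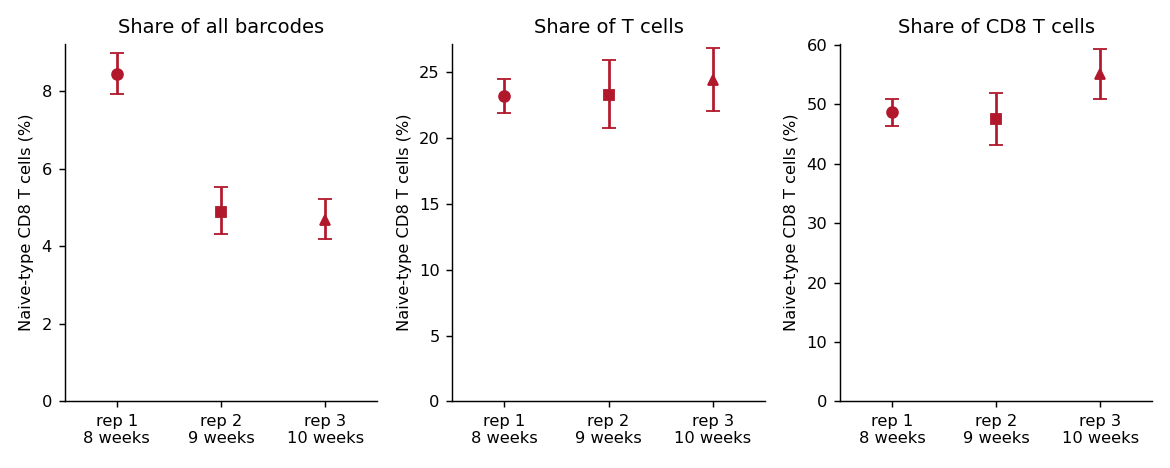
Naive-type CD8 T cells as a percentage of all barcodes, of T cells and of CD8 T cells in each library, with exact 95% binomial intervals as bars. The share of all barcodes was 8.44% in replicate 1 and 4.89% and 4.67% in the others, while the share of T cells lay between 23.2% and 24.4%.

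Members had medians of 3809, 3879 and 3695 UMIs and 2262, 2265 and 2220 genes per cell, and the libraries summed to 45718031, 19591648 and 23443660 UMIs. The 8 B cell markers summed to 90.9 to 436 CPM in members, against 26997 to 29188 in B cells. The 8 NK cell markers summed to 31.9 to 37.8 in members, against 17275 to 19790 in NK cells, and Klri2 was at 0. Of the 6 CD4 T cell markers Cd4 is at 0 by the rule, and of the 6 regulatory T cell markers Itgb8 was at 0. The 7 erythroid markers summed to 1199, 22131 and 5021 in members, and were likewise highest in replicate 2 in memory-type CD8 T cells, naive-type CD4 T cells, B cells and NK cells. The 8 platelet markers summed to 33.5, 281 and 256 and the 4 invariant T cell markers to 251, 262 and 198 in members. Between replicates, 5149 genes at 50 or more CPM had a median coefficient of variation of 8.10%, and 29 of them differed 2-fold or more, among them the platelet gene Ppbp, the haemoglobin gene Hba-a2 and the B cell gene Cd74. Scrublet, a doublet caller, marked 6.06%, 2.30% and 2.08% of barcodes and 6, 0 and 0 members, which were kept. The libraries shared 83, 101 and 48 barcode sequences by pair, 1 of them between members.

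The gate's edges differed in how sharp they were. Members with no UMI of Ccl5, Cxcr3 and Il2rb (911 cells) had 20.4 Cd44 and 216 Itgae CPM, and those with 1 UMI (575 cells) had 22.7 and 227. Just outside, the 338 cells with 2 such UMIs still had 37.5 Cd44 and 196 Itgae, whereas the 1169 cells with 3 or more had 194 Cd44 and 53.6 Itgae. Cells with 2 such UMIs were therefore closer to the members in both genes than to the rest of the memory-type class they were counted in. At the CD8 edge, the 21 members with exactly 2 UMIs of Cd8a and Cd8b1 had 498 Nkg7 CPM, against 192 in the 30 cells with 1. At the T cell edge, 24 members with 4 or 5 UMIs had a median of 1120 UMIs in all, against 725 in the 9 cells with 2 or 3. The limits on Cd4, on B cell genes and on myeloid genes kept out 84, 112 and 58 cells that met every other condition, with medians of 4160, 6928 and 6780 UMIs.

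The 3 given markers beyond CD8 differed in how far they reached into other T cells. Itgae (chromosome 11, 73090583 to 73147446, GRCm38) had 229, 218 and 195 CPM in members, 209, 142 and 137 in Foxp3-positive CD4 T cells, 87.4, 57.8 and 85.4 in memory-type CD8 T cells, and 2.01, 0.876 and 0 in naive-type CD4 T cells. In these levels members and Foxp3-positive CD4 T cells overlapped, through replicate 1 of the latter alone, and both lay above memory-type CD8 and naive-type CD4 T cells. The Foxp3-positive class held 101, 37 and 21 cells, so its levels rest on few cells. Dapl1 (chromosome 2, 59484653 to 59505020, GRCm38), a gene related to death-associated protein, was spread across naive and memory-type T cells: 523, 563 and 484 in members, 404, 399 and 430 in memory-type CD8 and 314, 417 and 324 in naive-type CD4 T cells. Rgcc (chromosome 14, 79288756 to 79301645, GRCm38), a regulator of the cell cycle, had 311, 270 and 289 in members, against 140, 99.2 and 128 in memory-type CD8 and 122, 97.2 and 113 in naive-type CD4 T cells. In B cells, NK cells and the Csf1r or Csf3r expressing cells, Itgae and Dapl1 averaged below 1 CPM.

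Thinned to 2000 UMIs per cell, Itgae was detected in 31.3% ± 0.473 of members (SD, n = 3), against 11.1% ± 2.79 of memory-type CD8 and 0.151% ± 0.261 of naive-type CD4 T cells. Without thinning it was 42.6% ± 2.57 of members. In B cells, which should lack the gene, the thinned share was 0.0728%. Foxp3-positive CD4 T cells, with 98, 35 and 19 cells kept, had thinned shares of 16.3%, 11.4% and 15.8%. These lay below the members' 30.9%, 31.2% and 31.8% and overlapped the 13.2%, 7.95% and 12.1% of memory-type CD8. Dapl1 was detected in 44.4% ± 4.90 of thinned members, 39.3% ± 4.65 of memory-type CD8 and 37.5% ± 5.77 of naive-type CD4 T cells, and these 3 shares overlapped between libraries.

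**Figure D2:**
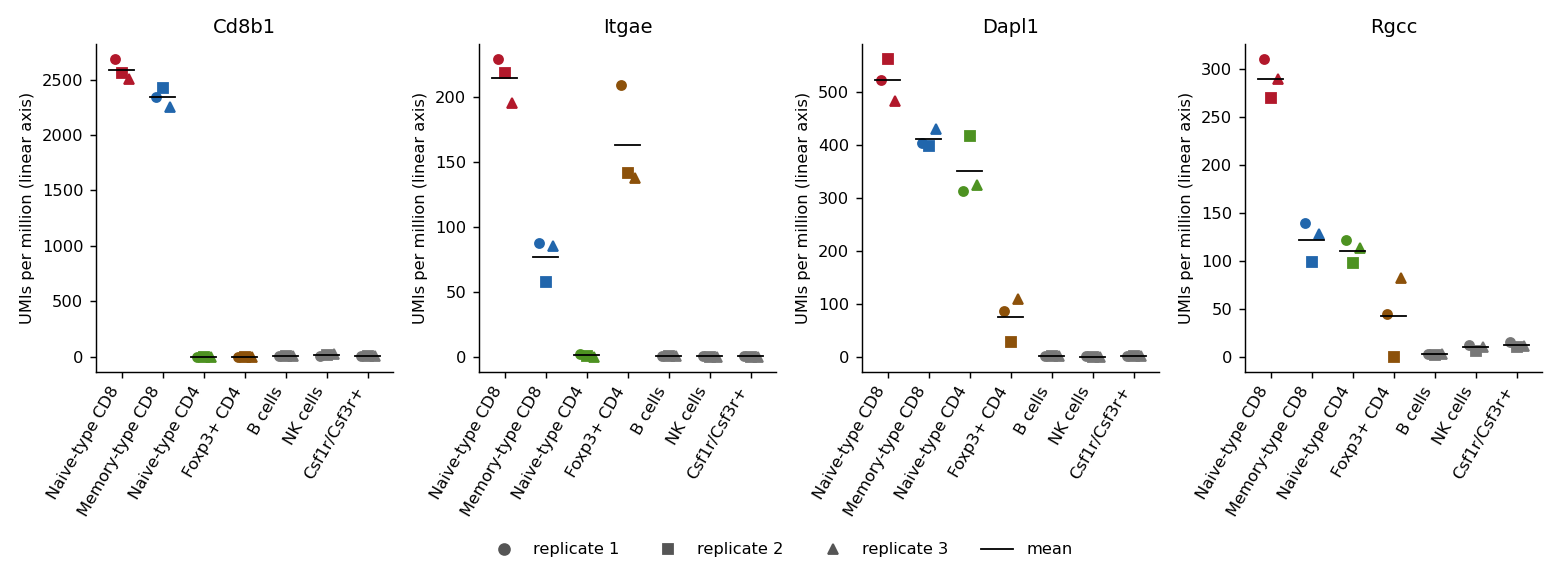
CPM of Cd8b1, Itgae, Dapl1 and Rgcc in 7 classes, with 1 point for each library and a line at the mean. Itgae was high in naive-type CD8 and Foxp3-positive CD4 T cells, Dapl1 in naive-type CD8, memory-type CD8 and naive-type CD4 T cells, and Cd8b1 is set by the rule.

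Against all other barcodes together, Slc6a19, Ccr9 and Itgae had the highest smallest fold over the libraries. Of 8243 genes at 20 or more CPM in members or in the rest, 330 (4.0%) were at least 2-fold higher and 802 (9.73%) at least 2-fold lower in members in all 3 libraries. Against the other T cells alone, the counts were 31 higher and 97 lower. Since members were chosen from these barcodes, this is a description without a test. Ordered by the smallest fold over the libraries, the first 12 included Slc6a19, Ccr9, Itgae, Kcna2, Cd8a, Cd8b1, Ggt1, Adgrg5, Trbv29, Rgcc and Auts2.

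Slc6a19, a neutral amino acid transporter best known from kidney and gut, had 102, 133 and 120 CPM in members, against 5.49, 4.70 and 2.60 in the rest. It averaged 36.9 in memory-type CD8 T cells, and at most 0.49 in naive-type CD4 T cells, Foxp3-positive CD4 T cells, B cells and NK cells. Ccr9, the receptor for the thymic and small-intestinal chemokine CCL25, had 120, 99.3 and 126 in members, against 8.76, 4.08 and 3.70 in the rest. Kcna2, a voltage-gated potassium channel, had 88.9, 103 and 91.4 in members, against 10.1, 5.55 and 3.65. Adgrg5, an adhesion G protein-coupled receptor, was as high in memory-type CD8 T cells (227 ± 18.5 in members and 219 ± 3.19 in memory-type CD8, SD, n = 3). The lowest genes were those of other lineages: Csf3r, Tyrobp, Cybb, H2-Eb1, Ctsh and Fcrl1, with Tyrobp, a signalling adaptor of NK and myeloid cells, at 19.6, 10.8 and 7.99 in members, against 2508, 1441 and 1143 in the rest.

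Memory-type CD8 T cells were taken by the same rule but with 2 or more UMIs over Ccl5, Cxcr3 and Il2rb, and held 1507 cells. They were deeper than members, with medians of 4784, 4870 and 4274 UMIs per cell, and the gate sorts cells by 3 genes that are themselves expressed together with other effector genes, so differences in such genes follow the gate. Most tested genes of the effector and memory list were lower in members, and most of the naive and quiescence list were higher. Of 8922 genes tested in UMI sums per library, with the library as a block, 617 (6.92%) were higher and 776 (8.7%) lower in members at an edgeR adjusted p under 0.05. Without replicate 1 the counts were 288 and 428, and with cells of 2000 to 5000 UMIs alone 280 and 433. The part of depth in the other differences was not tested.

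Genes of the naive and quiescent state were mostly higher in members. Of 23 tested, 15 were higher and 2 lower, with a median log2 difference of 0.21, against 0.00 over all genes tested. Igfbp4, an insulin-like growth factor binding protein, had 840, 839 and 796 CPM in members, against 394, 390 and 528 in memory-type CD8, and was higher (log2 fold 0.94, SE 0.08, edgeR adjusted p = 4.18e-05). Bach2, a repressor that restrains effector differentiation, had 267, 249 and 283 in members, against 186, 173 and 194, and was higher (log2 fold 0.51, SE 0.06, edgeR adjusted p = 2.72e-11). Neither gene overlapped between the classes, as was so for 2137 of all 8922 genes tested (24.0%). Lef1, Ccr7, Klf2 and Tcf7 were higher by log2 folds of 0.42, 0.40, 0.29 and 0.22. The interleukin 7 receptor chain Il7r, with a log2 difference of 0.04 (SE 0.04), did not pass the test. The 2 lower members of the list were Id3, an inhibitor of E proteins (48.6, 28.1 and 65.7 in members, against 104, 109 and 164), and Txk, a Tec family kinase (log2 fold -0.31, SE 0.05). Id3 missed the threshold without the library block (edgeR adjusted p = 0.0623).

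Of 29 tested effector and memory genes, 25 were lower and 1 was higher, with a median log2 difference of -3.88. Xcl1, a chemokine for cross-presenting dendritic cells, had no UMI in any member library, against 61.5, 53.3 and 44.1 CPM in memory-type CD8 T cells. Over the pooled libraries it was at least 107-fold lower, taking 3 UMIs over the group as the floor. Gzmb, encoding granzyme B, had 1 UMI in members against 207, a ratio of 158 with an exact 95% interval of 28.0 to 6258. The inhibitory killer receptor gene Klrc1 had 3 UMIs against 502, 127 times fewer, with an exact interval of 43.4 to 620. Klrk1, encoding NKG2D, had 0.284, 2.16 and 0.887 CPM in members, against 74.9, 87.1 and 56.0, and was lower (log2 fold -6.59, SE 0.32, edgeR adjusted p = 2.62e-31). S100a4, a calcium-binding protein of migratory cells, was lower by a log2 fold of -5.33 (SE 0.25), and its level in memory-type CD8 ran from 44.1 in replicate 3 to 174 in replicate 1. The 8 NK cell markers moved alongside, summing to 31.9 to 37.8 CPM in members and 320 to 530 in memory-type CD8. Of the tested markers of other cells, the regulatory T cell markers Ikzf2 and Ctla4, the gamma-delta marker Tcrg-C2, the invariant T cell marker Il18r1 and the monocyte marker Ccr2 were also lower, by log2 folds of -1.58, -1.09, -3.19, -1.33 and -3.81. Regulatory T cell markers summed to 23.9 to 29.3 in members and 51.4 to 80.9 in memory-type CD8, gamma-delta markers to 15.1 to 52.3 and 46.9 to 94.5, invariant T cell markers to 198 to 262 and 359 to 457, and monocyte markers to 43.5 to 71.3 and 65.2 to 94.6. The part of these cells in the result was not tested.

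Some cytotoxic genes were abundant in members. Nkg7, a granule membrane protein needed for efficient degranulation, had 868, 767 and 820 CPM in members, against 1552, 1567 and 1501 in memory-type CD8 T cells, and was lower (log2 fold -0.92, SE 0.04, edgeR adjusted p = 1.37e-38). It was still detected in 84.8% ± 0.517 of members and in 1.92% ± 0.695 of B cells (SD, n = 3). Klrd1, the CD94 chain that pairs with NKG2 receptors, had 375, 421 and 374 in members, against 421, 430 and 405 (log2 fold -0.14, SE 0.06), and Cxcr6, a chemokine receptor of tissue-homing T cells, had 114, 135 and 87.0, against 110, 125 and 94.6 (log2 fold 0.01, SE 0.09). Neither passed the test, and the members' Cxcr6 levels spanned those of memory-type CD8. Itga4, the integrin alpha 4 chain, was the only effector and memory gene called higher: 415, 314 and 465 in members, against 303, 237 and 311 (log2 fold 0.45, SE 0.05, edgeR adjusted p = 1.76e-11).

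Among 21 lineage transcription factors 11 were lower and 2 higher. Tbx21, encoding T-bet, had 3.41, 6.48 and 3.55 CPM in members, against 142, 149 and 107 in memory-type CD8 (log2 fold -5.11, SE 0.18, edgeR adjusted p = 1.23e-45). Eomes, its partner in effector and memory programming, had 23.6, 33.5 and 26.6 in members, against 136, 158 and 155 (log2 fold -2.49, SE 0.12). Neither overlapped between the classes, as was so for 24.0% of all genes tested, and Eomes kept a measurable level in members. Runx3, which silences Cd4 in CD8 cells, was lower by 0.25 (log2 fold -0.25, SE 0.05). The 2 higher factors, Patz1 (log2 fold 0.21) and Ikzf1 (0.13), lost the call without replicate 3 (edgeR adjusted p = 0.265) and without replicate 1 (edgeR adjusted p = 0.25).

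Receptor signalling genes went both ways, with 9 higher and 13 lower of 36. Trat1, a transmembrane adaptor of the T cell receptor, had 32.4, 38.9 and 34.6 CPM in members, against 15.7, 10.5 and 11.9 (log2 fold 1.24, SE 0.18, edgeR adjusted p = 1.11e-08). Sla, an adaptor that lowers receptor levels, and Ubash3b, a phosphatase that dampens signalling, were lower by log2 folds of -0.93 (SE 0.07) and -0.80 (SE 0.11). Cd5, a negative regulator whose level follows the strength of self-recognition, had 290, 269 and 303 in members, against 377, 366 and 372, and was lower (log2 fold -0.40, SE 0.05). Of 18 cytokine receptor genes 5 were higher and 7 lower. Ifngr2, the signalling chain of the interferon gamma receptor, had 65.6, 75.6 and 47.9 in members, against 29.6, 29.3 and 38.6 (log2 fold 1.02, SE 0.13), while its partner Ifngr1 went the other way (log2 fold -0.73, SE 0.05). Il10ra and Il18r1, receptors for interleukins 10 and 18, were lower by log2 folds of -1.35 (SE 0.12) and -1.33 (SE 0.07).

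Of 18 homing and egress genes 7 were higher and 8 lower. Ccr9 had 120, 99.3 and 126 CPM in members, against 39.8, 20.3 and 39.5 in memory-type CD8 T cells, and was higher (log2 fold 1.69, SE 0.12, edgeR adjusted p = 7.15e-24). The egress receptor gene S1pr1 was higher by 0.25 (log2 fold, SE 0.04). Gpr15, which guides T cells to the colon in mice, had 3.41, 1.08 and 0 in members, against 57.2, 66.9 and 45.0 (log2 fold -4.61, SE 0.28). Cxcr5, a B cell follicle receptor, had 12.5, 29.2 and 39.9 in members, against 113, 125 and 116 (log2 fold -2.48, SE 0.39, edgeR adjusted p = 0.0195), and the call was lost without replicate 2 at a log2 fold of -2.57 (edgeR adjusted p = 0.205). The levels of Ccr9, Gpr15 and Cxcr5 did not overlap between the classes, against 24.0% of all genes tested.

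The TGF-beta pathway had 5 genes higher (31.25%) and 1 lower (6.25%) of 16, against 6.92% and 8.7% of all genes tested. Tgfbr3, the co-receptor betaglycan, had 86.3, 96.1 and 86.1 CPM in members, against 34.1, 21.0 and 48.7 (log2 fold 1.35, SE 0.13, edgeR adjusted p = 1.78e-14). Tgfbr2, Smad7 and Ski, the ligand-binding receptor and a pair of inhibitors of the pathway, were higher by log2 folds of 0.22, 0.27 and 0.32. Smad3, a receptor-activated transcription factor, was lower, with 61.6, 42.1 and 55.9 in members, against 110, 127 and 101 (log2 fold -1.0, SE 0.11). Pmepa1, a TGF-beta target that restrains the pathway, was higher by 0.60 (SE 0.13), a call lost without replicate 1 (edgeR adjusted p = 0.224). With cells of 2000 to 5000 UMIs alone, 2 genes of the list were higher and 1 lower.

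Further genes were named for their fold among those at 50 or more CPM and moved the same way in all 3 libraries. Slc6a19 had 102, 133 and 120 in members, against 29.8, 41.3 and 39.5 (log2 fold 1.69, SE 0.12, edgeR adjusted p = 3.27e-24). Tmie, Xkrx, Cnn3, Cpm and Selenop were also higher, by log2 folds of 1.55, 1.46, 1.26, 1.21 and 1.17. Selenop, the selenium transport protein, was the most abundant, with 480, 579 and 501 in members, against 231, 216 and 205. Samd3 and Gzmm were lower by log2 folds of -5.93 and -5.60, and Gas7 held 3 UMIs in members against 415, a ratio of 105 with an exact 95% interval of 35.8 to 513.

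Of 15 costimulatory and inhibitory receptors 3 were higher and 4 lower, with Vsir, encoding the checkpoint VISTA, higher by 0.42 (SE 0.04) and Cd160 lower by a log2 fold of -1.89 (SE 0.18). Of 7 genes of recent thymic emigrants 3 were higher (42.9%) and 2 lower (28.6%), so the list went both ways. Dntt, the terminal transferase of developing lymphocytes, averaged 13.8 ± 5.46 CPM in members and 2.25 ± 0.409 in memory-type CD8 (SD, n = 3), with a log2 fold of 2.45 (SE 0.38). Its level was below 20 CPM, so it was not named by rule here. Against all other barcodes, of 6 genes of this list at 20 or more CPM, 1 was at least 2-fold higher and 2 at least 2-fold lower. Of 24 interferon-stimulated genes 4 were higher (16.7%) and 2 lower (8.33%), against 6.92% and 8.7% of all genes tested. Of 8 GIMAP GTPases, which support lymphocyte survival, 6 were lower and none higher, with Gimap4 at 777, 834 and 792 in members, against 1181, 1127 and 1281 (log2 fold -0.60, SE 0.04). The MHC class I presentation list had 3 of 16 higher and none lower, but these calls were absent without replicate 1, under DESeq2, without the library block and in cells of 2000 to 5000 UMIs. Of 17 immediate-early genes 3 were higher and 3 lower, and of 8 proliferation genes 3 were lower, with Stmn1, a tubulin regulator, at 20.2, 20.5 and 21.3 in members, against 64.1, 32.3 and 39.5. In cells of 2000 to 5000 UMIs the Stmn1 difference missed the threshold (edgeR adjusted p = 0.604).

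**Figure D3:**
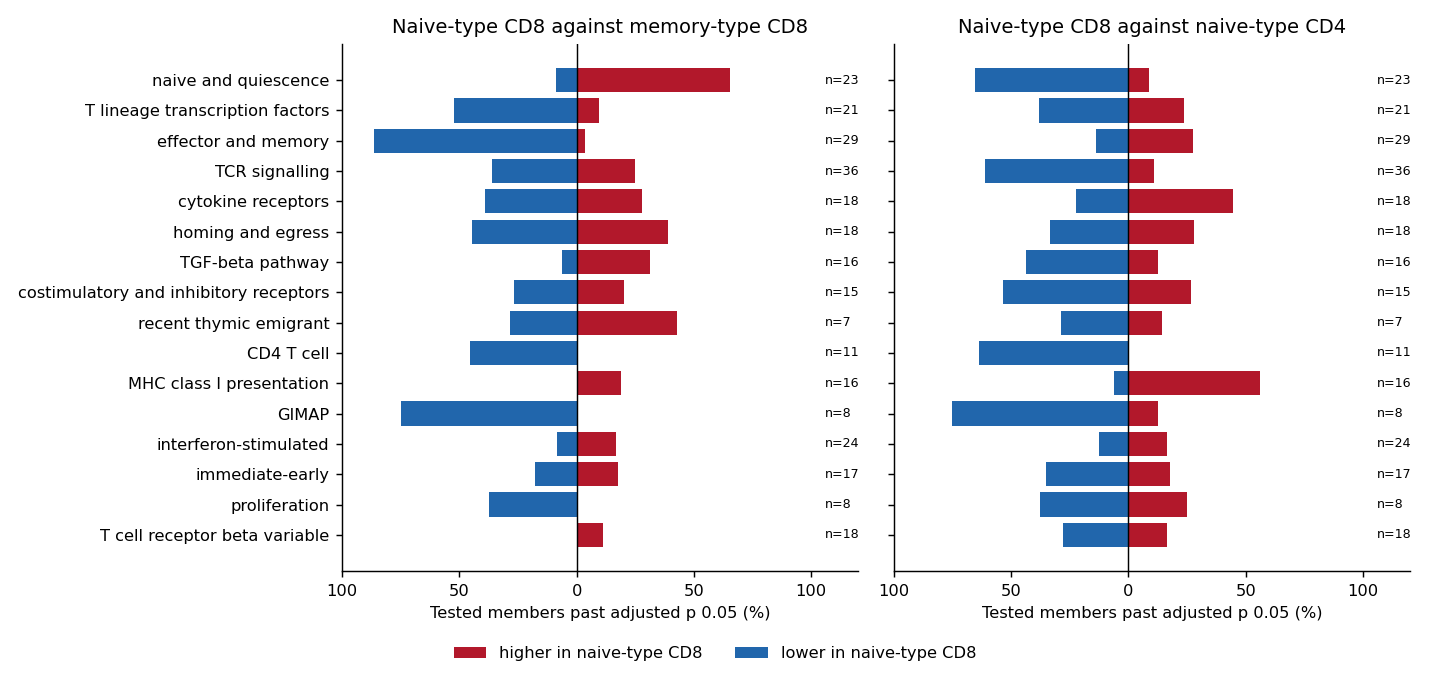
Percentage of the tested members of 16 gene lists that were higher (right) or lower (left) in naive-type CD8 T cells at an edgeR adjusted p under 0.05, against memory-type CD8 and naive-type CD4 T cells, with the number tested at the right edge. The naive and quiescence list has 15 of 23 genes higher against memory-type CD8 and 15 of 23 lower against naive-type CD4 T cells. Over all genes the shares were 6.92% higher and 8.7% lower, and 11.3% each way.

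Naive-type CD4 T cells passed the same T cell, B cell, myeloid and effector limits with 1 or more Cd4 UMIs, none of Cd8a, Cd8b1 and Foxp3, and held 2146 cells with medians of 3569, 3382 and 3247 UMIs. Relative to them, members had lower levels of most tested genes of the naive and quiescence list and of the receptor signalling list. In the same fit, 1005 of 8922 genes (11.3%) were higher and 1008 (11.3%) lower in members at an edgeR adjusted p under 0.05. Without replicate 1 the counts were 603 and 570, and with a stricter rule, which among other limits asked for no UMI of Ccl5, Cxcr3 and Il2rb, 612 and 536. Both comparisons use the same member sums, so they are not independent of each other.

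CD8 and CD4 lineage factors separated the classes, which the gate splits by Cd8a, Cd8b1 and Cd4. Differences in genes tied to either lineage therefore follow the gate. Of 21 lineage transcription factors 5 were higher and 8 lower. Runx3 had 369, 338 and 405 CPM in members, against 202, 188 and 178 in naive-type CD4 T cells (log2 fold 0.93, SE 0.06, edgeR adjusted p = 1.25e-20). Eomes had 23.6, 33.5 and 26.6 in members, against 2.01, 5.25 and 2.76 (log2 fold 3.25, SE 0.27). Zbtb7b, encoding ThPOK, the factor that commits cells to the CD4 lineage, had 2.56, 6.48 and 0.887 in members, against 173, 166 and 194 (log2 fold -5.92, SE 0.18, edgeR adjusted p = 2.17e-51). Maf was lower by a log2 fold of -3.26 (SE 0.37). None of the 4 overlapped, as was so for 2554 of all 8922 genes tested (28.6%). The gate may leave antigen-experienced cells in the naive-type CD4 class. Their part in the Maf difference, and in those of Cd44 and S100a4 below, was not tested. Of 11 CD4 T cell genes 7 were lower and none higher. Cd40lg, the helper ligand for B cells and dendritic cells, had 1.42, 2.16 and 0.887 in members, against 219, 190 and 220 (log2 fold -7.17, SE 0.21).

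Of 29 tested effector and memory genes 8 were higher and 4 lower. Nkg7 had 868, 767 and 820 CPM in members, against 8.03, 4.38 and 8.28 in naive-type CD4 T cells (log2 fold 6.78, SE 0.09, edgeR adjusted p = 5.13e-85). Cxcr6 had 114, 135 and 87.0 in members, against 4.21, 0.876 and 2.07 (log2 fold 5.06, SE 0.18). Klrd1, Ctsw and Ahnak were higher by log2 folds of 2.75, 2.18 and 1.70, where Ctsw encodes the lymphocyte cathepsin W. Of the markers of innate-like invariant T cells, which include Cxcr6, the defining factor Zbtb16 had 0.284, 0 and 0 in members and Klrb1b 0.284, 1.08 and 0, while Il18r1 had 136, 126 and 111, against 113, 79.7 and 92.4. The 4 markers summed to 198 to 262 in members and 83.2 to 122 in naive-type CD4 T cells, and both that were tested, Cxcr6 and Il18r1, were higher. The part of such cells in the result was not tested. Cd44 was lower, with 16.8, 27.0 and 31.1 in members, against 67.8, 90.2 and 68.3 (log2 fold -1.74, SE 0.15), as was S100a4 (log2 fold -2.92, SE 0.36), whose call was lost without the library block (edgeR adjusted p = 0.155) and in cells of 2000 to 5000 UMIs (0.123).

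The naive and quiescence list had 2 genes higher and 15 lower of 23, with a median log2 difference of -0.22, against 0.00 over all genes tested. Igfbp4, higher in members than in memory-type CD8 T cells, was lower than in naive-type CD4 T cells: 840, 839 and 796 CPM in members, against 2205, 2183 and 2428 (log2 fold -1.45, SE 0.07, edgeR adjusted p = 3.49e-07). Bcl11b, Satb1, Tcf7, Ccr7 and Lef1 were lower by log2 folds of -0.61, -0.46, -0.36, -0.28 and -0.22. Klf3, one of the higher genes, lost its call without replicate 3 (log2 fold 0.08, edgeR adjusted p = 0.283).

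Receptor signalling genes were mostly lower, 22 of 36 (61.1%) with 4 higher (11.1%), against 11.3% each way over all genes tested. Cd5 had 290, 269 and 303 CPM in members, against 691, 624 and 795 (log2 fold -1.29, SE 0.05, edgeR adjusted p = 3.26e-43). Trat1 had 32.4, 38.9 and 34.6 in members, against 154, 141 and 161 (log2 fold -2.17, SE 0.11). Cd6, a relative of Cd5, and Rasgrp1, the exchange factor that activates Ras below the receptor, were lower by log2 folds of -0.74 and -0.50. Ptpn22, a phosphatase that limits signalling, had 489, 569 and 466 in members, against 265, 310 and 290 (log2 fold 0.83, SE 0.05), and Themis, a signal modulator of thymocytes, was higher by 0.46 (SE 0.05). The levels of Cd5, Trat1 and Ptpn22 did not overlap between the classes, as was so for 28.6% of all genes tested. Of 15 costimulatory and inhibitory receptors 4 were higher and 8 lower, with Cd226, an activating adhesion receptor, at 193, 194 and 169 in members, against 67.4, 56.9 and 59.3 (log2 fold 1.55, SE 0.09), and Cd28 and Btla lower by log2 folds of -1.19 and -1.08.

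Of 18 homing genes 5 were higher and 6 lower. Ccr9 had 120, 99.3 and 126 CPM in members, against 1.61, 3.50 and 2.07 in naive-type CD4 T cells (log2 fold 5.86, SE 0.21, edgeR adjusted p = 1.58e-46). Cxcr4, the receptor for CXCL12, was higher by 0.74 (SE 0.07). Gpr183, an oxysterol receptor for positioning in lymphoid tissue, and the integrin alpha 6 gene Itga6 were lower by log2 folds of -0.97 (SE 0.07) and -0.89 (SE 0.06). Of 18 cytokine receptor genes 8 were higher and 4 lower, with Ifngr1 at 365, 485 and 375 in members, against 251, 331 and 218 (log2 fold 0.60, SE 0.05). The Ifngr1 call was lost without the library block (edgeR adjusted p = 0.107). Il4ra and Il6ra, chains of the receptors for interleukins 4 and 6, were lower by log2 folds of -0.67 and -0.61.

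The TGF-beta list had 2 genes higher (12.5%) and 7 lower (43.75%) of 16, against 11.3% each way over all genes tested. Pmepa1 had 59.6, 59.4 and 47.9 CPM in members, against 22.9, 20.1 and 26.9 (log2 fold 1.29, SE 0.15, edgeR adjusted p = 1.31e-12). Tgfbr3 had 86.3, 96.1 and 86.1 in members, against 169, 152 and 160 (log2 fold -0.89, SE 0.09), and Ski was lower by a log2 fold of -0.63 (SE 0.05). Tgif1 was higher by 0.48 (SE 0.10), a call lost without replicate 1 (edgeR adjusted p = 0.462).

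Of 16 MHC class I presentation genes 9 were higher and 1 lower, against 5 higher without replicate 1. H2-Q7, a nonclassical class I gene of a family of near-identical copies, had 1431, 1520 and 1306 CPM in members, against 1001, 1047 and 946 (log2 fold 0.50, SE 0.04, edgeR adjusted p = 1.06e-21), and its assignment among those copies is uncertain. Nlrc5, the transactivator of class I genes, had 596, 497 and 598 in members, against 458, 366 and 437 (log2 fold 0.41, SE 0.05). B2m and Psmb8, the class I light chain and an immunoproteasome subunit, were higher by log2 folds of 0.28 and 0.31, and the chaperone Pdia3 was lower by a log2 fold of -0.42 (SE 0.07). H2-K1 and H2-D1, the classical heavy chains, had log2 folds of 0.03 and -0.04 and did not pass the test.

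Among the other lists, 6 of 8 GIMAP genes were lower and 1, Gimap5, was higher (149, 151 and 147 CPM in members, against 105, 108 and 93.8). Of 24 interferon-stimulated genes 4 were higher (16.7%) and 3 lower (12.5%), near the 11.3% each way over all genes tested. Ly6a, encoding Sca-1, had 52.8, 79.9 and 32.8 in members, against 325, 422 and 243 (log2 fold -2.61, SE 0.08, edgeR adjusted p = 1.65e-50). Of 17 immediate-early genes 3 were higher (17.6%) and 6 lower (35.3%). Of 7 thymic emigrant genes 1 was higher (14.3%, near the share over all genes) and 2 lower (28.6%). Stmn1 was lower in 8 proliferation genes of which 2 were higher and 3 lower (log2 fold -2.42, SE 0.14), and the tubulin gene Tubb5 was higher (log2 fold 0.73, SE 0.04).

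Beyond the lists, Slc6a19 had 102, 133 and 120 CPM in members, against 0.602, 0.876 and 0 in naive-type CD4 T cells (log2 fold 7.55, SE 0.25, edgeR adjusted p = 2.44e-48). Adgrg5, Bend4, Eng and Haao were higher by log2 folds of 6.66, 6.52, 5.64 and 5.34, where Eng encodes endoglin, a co-receptor for TGF-beta family ligands, and Haao an enzyme of tryptophan breakdown. Eng had 53.4, 57.2 and 59.5 in members, against 1.20, 0.876 and 0.690. St8sia6, a sialyltransferase, and Pdlim4, an actin-linked protein, were lower by log2 folds of -4.89 and -4.28. Itgb3, the integrin beta 3 chain, had 21.0, 43.2 and 42.6 in members, against 196, 174 and 227 (log2 fold -2.73, SE 0.20). Itgb3 is also a platelet marker, and Pf4, a defining platelet gene, was at 2.27, 36.7 and 29.3 in members and 1.20, 33.3 and 16.6 in naive-type CD4 T cells, and the part of platelet RNA in the Itgb3 result was not tested.

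**Figure D4:**
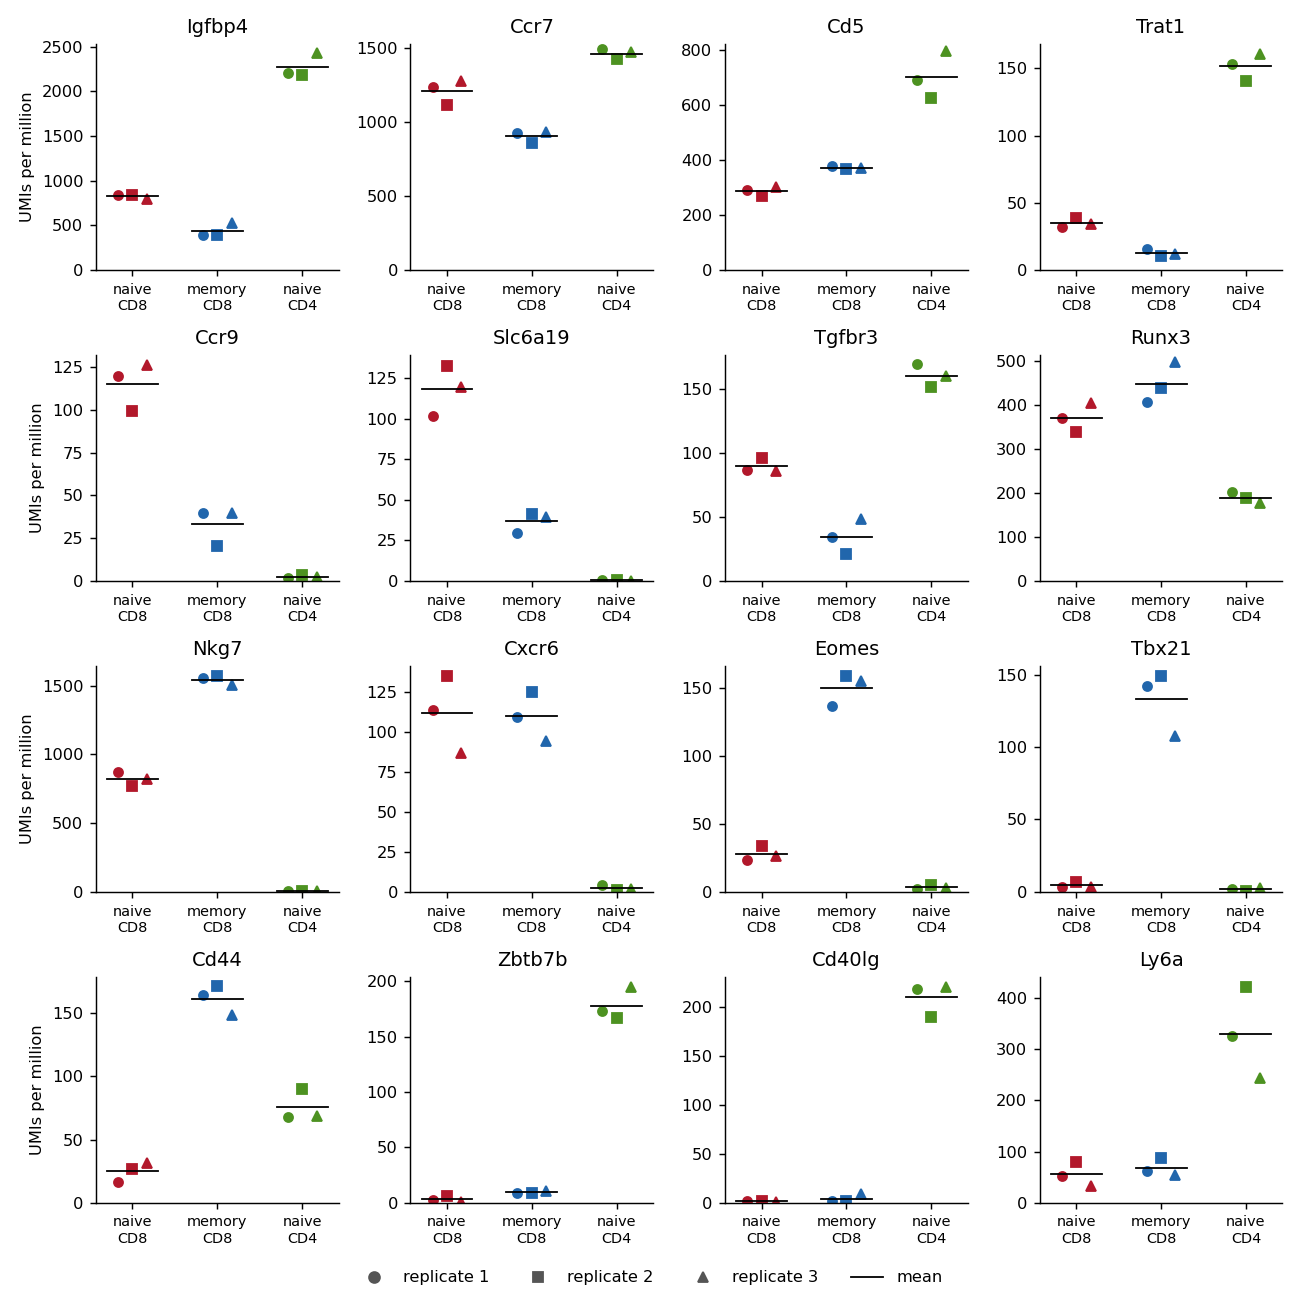
CPM of 16 genes in naive-type CD8, memory-type CD8 and naive-type CD4 T cells, with 1 point for each library and a line at the mean. Ccr9 and Slc6a19 are highest in naive-type CD8 T cells, Nkg7, Cxcr6 and Runx3 are higher in both CD8 classes than in naive-type CD4 T cells, and Igfbp4, Cd5 and Trat1 are highest in naive-type CD4 T cells.

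Members also differed among themselves. Itgae was detected in 44.5%, 43.7% and 39.7% of members. Of 413, 108 and 123 Itgae-positive members, 407, 105 and 121 were matched to an Itgae-negative one of the same library and near-equal UMI total. Of 7397 genes, 6 (0.0811%) were higher and 7 (0.0946%) lower in Itgae-positive members at an edgeR adjusted p under 0.05, while 427 had an unadjusted p under 0.05. DESeq2 called 1 higher and 0 lower.

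Rgcc was the gene higher in Itgae-positive members that held under every alternative: 396, 377 and 405 CPM in Itgae-positive members, against 241, 175 and 218 in Itgae-negative ones (log2 fold 0.83, SE 0.08, edgeR adjusted p = 6.03e-12). Igfbp4 had 966, 1107 and 909 in Itgae-positive members, against 764, 604 and 725 (log2 fold 0.48, SE 0.08, edgeR adjusted p = 0.00638), and its call was lost without replicate 2 (0.0682). Ccr9 and Vim were higher by log2 folds of 0.56 and 0.27, calls lost without replicate 1, without replicate 2, without the library block and under DESeq2. The Ccr9 call was also lost with doublets removed and with plain library totals. That of Vim was also lost without replicate 3 and without platelet-bearing barcodes. Dapl1 was lower: 431, 474 and 370 in Itgae-positive members, against 621, 656 and 581 (log2 fold -0.54, SE 0.07, edgeR adjusted p = 3.68e-08), and missed the threshold with DESeq2 alone (DESeq2 adjusted p = 0.0575). Myb, a factor of progenitors and long-lived T cells, was lower, with 32.8, 19.9 and 8.76 in Itgae-positive members, against 112, 64.1 and 168 (log2 fold -2.15, SE 0.23), although the call was absent without the library block and under DESeq2. Myb UMIs were unevenly spread, since 11 members of replicate 1 held 91 of its 254 Myb UMIs. Prss12, Ms4a4c and Sidt1 were lower by log2 folds of -1.03, -0.86 and -0.58, calls lost without replicate 1, as were those of Pde2a and Ifngr1 (-0.48 and -0.35). No gene of the receptor signalling, MHC class I, GIMAP or interferon-stimulated lists was called, with 36, 16, 8 and 18 tested. Over all genes 0.176% were called, so no call in lists of this size is near that share.

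The split by Dapl1 used the same cells and so is no independent check. Dapl1 was detected in 53.4%, 60.7% and 51.0% of members, and 419, 92 and 136 pairs were formed. Median UMIs in the pairs were 3880, 3672.5 and 3792 in Dapl1-positive members, against 3597, 3669.5 and 3561.5 in Dapl1-negative ones. The part of this depth difference in the result was not tested. Of 7549 genes, 9 (0.119%) were higher and 9 (0.119%) lower in Dapl1-positive members, or 18 in all (0.238%), while 476 had an unadjusted p under 0.05 and DESeq2 called 0 in either direction. Without replicate 1, 1 was higher and 1 lower, and of the genes named here Pde2a alone kept its call. Itgae had 187, 180 and 165 CPM in Dapl1-positive members, against 278, 258 and 243 in Dapl1-negative ones (log2 fold -0.56, SE 0.10, edgeR adjusted p = 3.93e-05). Ccr9, Slc6a19, Rgcc and Selenop were lower by log2 folds of -0.65, -0.62, -0.41 and -0.32. Among the tested markers of other cells, the 1 of gamma-delta T cells and 1 of 4 erythroid markers were lower. Conversely, 1 of 2 invariant T cell markers was higher. Trdc, the gamma-delta receptor constant gene, was chosen after its values were seen. It averaged 16.2 ± 6.73 CPM in Dapl1-positive members and 49.8 ± 33.3 in Dapl1-negative ones (SD, n = 3 each; log2 fold -2.22, SE 0.29, edgeR adjusted p = 9.16e-11). It was higher in Dapl1-positive members in replicate 2 and did not pass the filter on low counts without replicate 1. The erythroid gene Alas2 had 31.9, 126 and 103, against 48.0, 298 and 108 (log2 fold -0.67, SE 0.16), and the part of either in the result was not tested. Pde2a, a cyclic nucleotide phosphodiesterase, had 334, 497 and 358 in Dapl1-positive members, against 213, 313 and 241 (log2 fold 0.63, SE 0.09, edgeR adjusted p = 8.74e-09). Hopx, Ms4a4c and Plac8 were higher by log2 folds of 0.80, 0.80 and 0.61. In the thinned members, Dapl1 was detected in 36.8%, 41.4% and 29.1% of Itgae-positive cells, against 46.3%, 54.3% and 46.0% of Itgae-negative cells, and both genes together in 11.8%, 12.4% and 8.74%.

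T cell receptor beta variable genes, which each T cell rearranges to use 1 per productive chain, gave a further view of the members. A Trbv UMI was present in 96.6%, 93.9% and 95.8% of members, with a median of 6 per cell. Among members with 3 or more such UMIs, 74.6%, 74.8% and 74.5% had 1 gene holding 80% or more of them, and these cells were assigned to that gene. Trbv13-2, Trbv15 and Trbv21 led 0 cells in members, memory-type CD8 and naive-type CD4 T cells in every library. Shares and ranks therefore hold only among the Trbv genes that led a cell, and why these genes led none was not tested. Among those that did, Trbv12-2 led with 14.0% ± 2.29 of assigned members, against 15.7% ± 0.621 of memory-type CD8 and 6.57% ± 0.491 of naive-type CD4 T cells (SD, n = 3). Trbv29 led 8.53% ± 1.17 of members, against 5.70% ± 0.304 and 1.34% ± 0.473, and Trbv12-1 led 8.13% ± 2.16, against 8.70% ± 2.95 and 1.65% ± 0.322. Trbv31 went the other way, with 1.62% ± 0.941 of members and 1.78% ± 0.429 of memory-type CD8, against 9.18% ± 2.09 of naive-type CD4 T cells, as did Trbv2 with 4.06% ± 0.879 and 4.44% ± 0.465, against 10.2% ± 0.844. The members and memory-type CD8 overlapped between libraries in all of these but Trbv29.

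In the fit of UMI sums, 3 of 18 Trbv genes were higher (16.7%) and 5 lower (27.8%) in members than in naive-type CD4 T cells. Over all genes tested the share was 11.3% each way. Trbv29 had 141, 188 and 118 CPM in members, against 45.6, 39.4 and 36.6 (log2 fold 1.76, SE 0.11, edgeR adjusted p = 1.99e-23), and Trbv31 had 42.6, 57.2 and 11.5, against 202, 173 and 168 (log2 fold -2.31, SE 0.31, edgeR adjusted p = 0.00776). With barcodes holding platelet UMIs left out, the Trbv29 call narrowly missed the threshold (log2 fold 1.77, edgeR adjusted p = 0.0548). Against memory-type CD8 T cells 2 of 18 were higher (11.1%, against 6.92% of all genes tested) and none lower. Trbv29 (log2 fold 0.59, SE 0.09) lost its call in cells of 2000 to 5000 UMIs (log2 fold 0.84, edgeR adjusted p = 0.309) and without platelet-bearing barcodes (log2 fold 0.75, edgeR adjusted p = 0.338). Variable genes have near-identical copies, so the split of probe counts between them is uncertain.

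**Figure D5:**
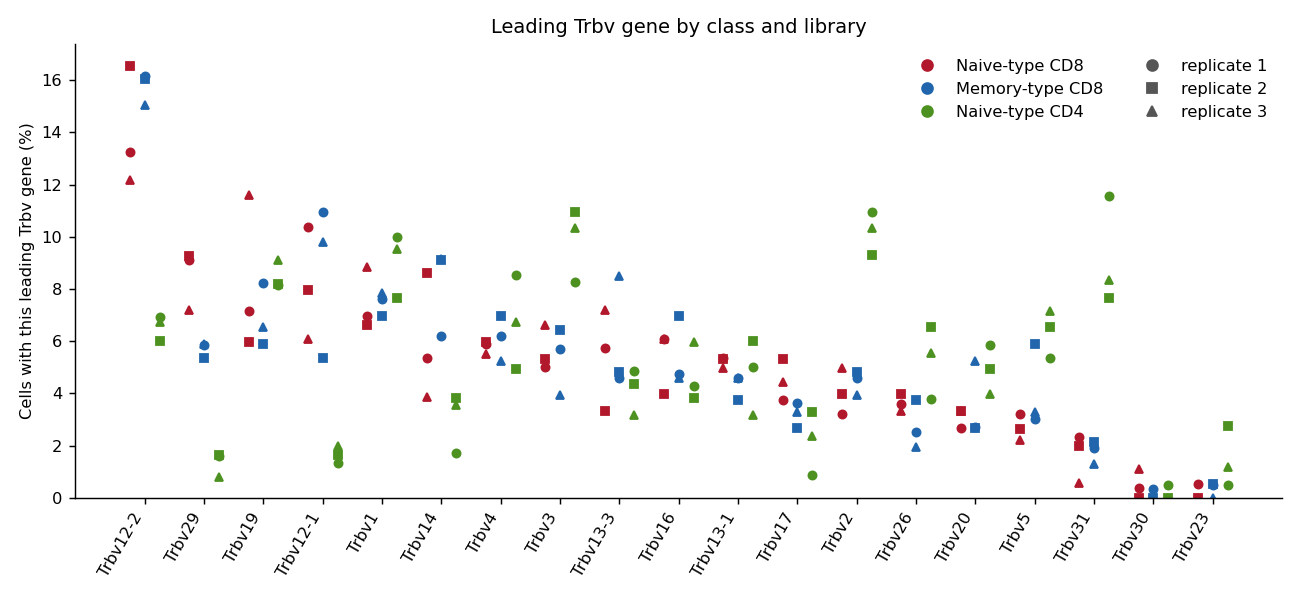
Percentage of assigned cells led by each Trbv gene in naive-type CD8, memory-type CD8 and naive-type CD4 T cells, with 1 point for each library, ordered by the mean in naive-type CD8 T cells. Trbv13-2, Trbv15 and Trbv21, which led 0 cells, are not shown. The points of both CD8 classes lie above those of naive-type CD4 T cells for Trbv12-2, Trbv29 and Trbv12-1 and below them for Trbv2 and Trbv31.

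A few members carried transcripts of other T cell kinds. Trdc, the gamma-delta receptor constant gene, was detected in 3.77%, 3.64% and 3.23% of members. In naive-type CD4 T cells it was 4.55%, 4.48% and 4.23%, above the members in each library. In memory-type CD8 T cells it was 5.80%, 2.56% and 2.78%, above the members in replicate 1 and below them in replicates 2 and 3. Members with 3 or more Trdc UMIs numbered 7, 1 and 2. Both Trdc and Tcrg-C1 were detected in 2, 0 and 0 members. Of the cell cycle genes, Mki67 was detected in 0.108%, 0.810% and 0.323% of members and Top2a in 1.83%, 0.405% and 1.61%.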

How the data were processed

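The authors deposited raw UMI counts per gene and barcode, made with Cell Ranger 7.1.0 per the file headers from a probe-based fixed-RNA kit in 16-plex format per the labels' protocols. The deposited barcode and feature files hold other values, namely cell and gene identifiers and no score. The genome build and probe set are not stated in the sources used here, so positions come from GENCODE's GRCm38 annotation by Ensembl ID. Barcodes with 200 or more of 19059 genes were kept. Scrublet (scanpy 1.11.5) marked doublets within each library; they were kept, and removed in an alternative. UMIs were summed per library and class and tested with edgeR 4.0.16 (quasi-likelihood, robust, TMM, filterByExpr, R 4.3.3) with the library as a block, because each library gave every class; p-values were adjusted by Benjamini-Hochberg and called under 0.05. DESeq2 1.42.0 was an alternative. Levels are UMI counts per 1000000 (CPM) of the class's total. Pairs in the splits by Itgae and Dapl1 matched within 10% of UMIs. Scripts used Python 3.11.15 and were tested on simulated data. The members and lists were chosen with earlier results of these data known. For each comparison and list, the rule named the 2 highest and 2 lowest called genes moved the same way in 3 libraries at 20 CPM or more, and over all genes the 8 highest and 8 lowest at 50 or more, of which some are given here. Other genes named were chosen after their values were seen. Some genes the rule names are not reported here.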

Additional observations from a re-analysis of the deposited data

How the results depend on the processing

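With the stricter rule the class averaged 2.70% of barcodes, and leaving out each library gave 4.78% to 6.67%. Against the other T cells alone, 31 genes were 2-fold higher and 97 lower, and at 4-fold against all others 44 were higher. Against memory-type CD8 T cells, the counts higher and lower were 222 and 374 with DESeq2 and 280 and 433 in cells of 2000 to 5000 UMIs, and ran from 288 to 542 and from 428 to 743 with 1 library left out. Against naive-type CD4 T cells they were 503 and 449 with DESeq2 and 612 and 536 with the stricter rule, and ran from 603 to 929 and from 570 to 906 with 1 library left out. Of the libraries left out in turn, replicate 1 gave the lowest counts in both comparisons. In the split by Itgae DESeq2 called 1 and 0, no filter gave 14 lower, and leaving out a library gave 1 to 6 higher and 2 to 11 lower. In the split by Dapl1 DESeq2 called 0 and 0, leaving out barcodes with platelet UMIs, an alternative chosen after seeing the data, gave 5 higher, and leaving out a library gave 1 to 10 higher and 1 to 9 lower. The cause was not tested.

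Classes of one library come from the same sample, so the pairing is by design. Without the library block, 314 genes were higher and 492 lower against memory-type CD8, 703 and 661 against naive-type CD4, 2 and 4 in the split by Itgae and 3 and 1 in the split by Dapl1. No named gene reversed. Of the alternative values of named genes, 660 of 707 kept their call against memory-type CD8, 742 of 779 against naive-type CD4, 86 of 130 in the split by Itgae and 99 of 160 in the split by Dapl1. A further planned split by another surface marker was not run. The number of libraries, 3 with 1 per age, limits the precision.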
